A study of Mus musculus with 10 samples.

Results

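The interferon gamma and interleukin 12 (IL-12) axis was represented by 8 genes of 22180 measured, each by the 1 probe set on the array that carries its symbol alone. They encode both chains of the interferon gamma receptor (Ifngr1 and Ifngr2), both chains of the IL-12 receptor (Il12rb1 and Il12rb2), the kinase Jak2, the transcription factors Stat4 and Tbx21 (T-bet), and the cytokine Ifng. RNA came from sorted mouse regulatory T (Treg) cells, CD4 T cells that express Foxp3 and hold back immune reactions, with 5 LKB1-deficient samples (titled Stk11 deletion) and 5 wild-type (WT) samples. Both groups were sorted from mixed bone marrow chimeras, hosts that hold haematopoietic cells from more than 1 donor marrow, and were lysed without culture. Stk11 encodes LKB1, a protein kinase upstream of AMPK and related kinases. The sources used here do not give the allele, any Cre driver, the age of the mice, the number of animals or the cells left from the host. They do not say that each array had its own animal, so the p-values measure the spread between arrays, which may be technical.

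Interferon gamma binds IFNGR1, and IFNGR2 completes the receptor, which signals through the kinases JAK1 and JAK2. IL-12 is read by IL12RB1, a chain shared with the IL-23 receptor, and by IL12RB2, whose signal through JAK2 and TYK2 activates STAT4. In helper T cells T-bet and STAT4 drive Ifng and the type 1 programme, and a fraction of Treg cells takes up T-bet and its targets in type 1 responses.

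The members were selected on their roles with the log2 differences between these groups already known, Ifngr1 and Il12rb2 having been among the larger increases. Their levels, differences, intervals and calls are therefore a description that supports nothing further, and no p-value of theirs is given. Levels are log2 signals after robust multi-array averaging (RMA). Differences are LKB1-deficient minus WT with the standard error (SE) of a limma model fitted over all genes, and genes with an adjusted p (Benjamini-Hochberg) under 0.05 are termed called. On every array the lower quartile of all probe sets lay between 3.53 and 3.65 and the upper quartile between 6.70 and 6.82. No detection calls accompany the values, so a low level cannot be told from background, and levels are compared between arrays and not between genes.

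Before the members, the arrays themselves differed. Pairs of LKB1-deficient arrays had r = 0.969 to 0.989 over genes, and pairs of WT arrays 0.990 to 0.993. Stk11 had log2 signals of 6.57, 6.01, 6.05, 6.71 and 6.78 on LKB1-deficient arrays 1 to 5, against 6.61, 6.69, 6.75, 6.95 and 6.92 on WT arrays 1 to 5. It was below every WT array on 3 of the 5 LKB1-deficient arrays, and whether its probe set covers the deleted part is not stated. Foxp3 had a log2 signal of 9.86 on LKB1-deficient array 1 and 11.10 to 11.50 on LKB1-deficient arrays 2 to 5, and of 10.95 to 11.19 on WT arrays. Transcripts of other cells were raised on LKB1-deficient arrays 1, 4 and 5, and some of them on arrays 2 and 3 too, as given with the marker lists further on. In such bulk samples, fewer cells of a type and less RNA per cell cannot be told apart.

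Ifngr1, the ligand-binding chain of the interferon gamma receptor, had log2 signals of 9.69, 11.07, 10.98, 10.99 and 10.98 on LKB1-deficient arrays 1 to 5, against 9.53, 9.51, 9.45, 9.48 and 9.50 on WT arrays 1 to 5. The groups did not overlap. LKB1-deficient arrays 2 to 5 lay within 0.1 of one another, and array 1 lay only just above the WT arrays. The means were 10.74 ± 0.59 in LKB1-deficient cells and 9.49 ± 0.03 in WT cells (SD, n = 5 each), a difference of 1.25 (SE 0.22) or 2.37-fold. Without LKB1-deficient array 1 the difference was 1.51 (SE 0.07), and since this array was the lowest of its group, leaving it out had to enlarge it.

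Il12rb2, the signalling chain of the IL-12 receptor that the IL-23 receptor does not share, had log2 signals of 5.52, 6.51, 6.16, 6.21 and 6.55 on LKB1-deficient arrays 1 to 5, against 5.39, 4.57, 5.26, 5.30 and 5.13 on WT arrays 1 to 5. Again the groups did not overlap and LKB1-deficient array 1 was the closest to the WT arrays. The means were 6.19 ± 0.41 in LKB1-deficient cells and 5.13 ± 0.33 in WT cells (SD, n = 5 each), a difference of 1.06 (SE 0.20) or 2.09-fold. WT array 2 was the lowest, and without it the difference was 0.92.

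The partner chains did not show this separation. Ifngr2, the chain that brings JAK2 to the interferon gamma receptor, had log2 signals of 8.06, 9.07, 9.05, 9.06 and 8.99 on LKB1-deficient arrays 1 to 5, against 8.39, 8.63, 8.38, 8.35 and 8.80 on WT arrays 1 to 5. It was above every WT array on 4 LKB1-deficient arrays and below every WT array on array 1, with a difference of 0.34 (SE 0.19) over all arrays and 0.53 (SE 0.11) without that array. Il12rb1, the chain that the IL-12 and IL-23 receptors share, had log2 signals of 6.33, 6.88, 5.97, 6.50 and 6.25 on LKB1-deficient arrays 1 to 5, against 6.45, 6.73, 6.88, 6.49 and 6.38 on WT arrays 1 to 5. Its groups overlapped, and the difference was -0.20 (SE 0.16).

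In the whole table, 52 genes (0.234%) were called higher in LKB1-deficient cells and 184 (0.83%) lower. Among the 8 members, 2 were called higher, Ifngr1 and Il12rb2, and 0 lower. Groups did not overlap, with LKB1-deficient arrays above, in the same 2 members and in 0.996% of all genes. With LKB1-deficient arrays below they did not overlap in 0 members and in 3.71% of all genes. These counts are what the choice of members made them. The calls were close to the threshold: Ifngr1 was called in 2 of the 10 fits that leave out 1 array, those without LKB1-deficient array 1 or 2, and Il12rb2 in 1, that without LKB1-deficient array 1. No member was called in the other 8 of these fits, whichever WT array or LKB1-deficient array 3, 4 or 5 was left out. Without LKB1-deficient array 1, 3 members were called higher (Ifngr2 as well), beside 0.812% of all genes.

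**Figure D1:**
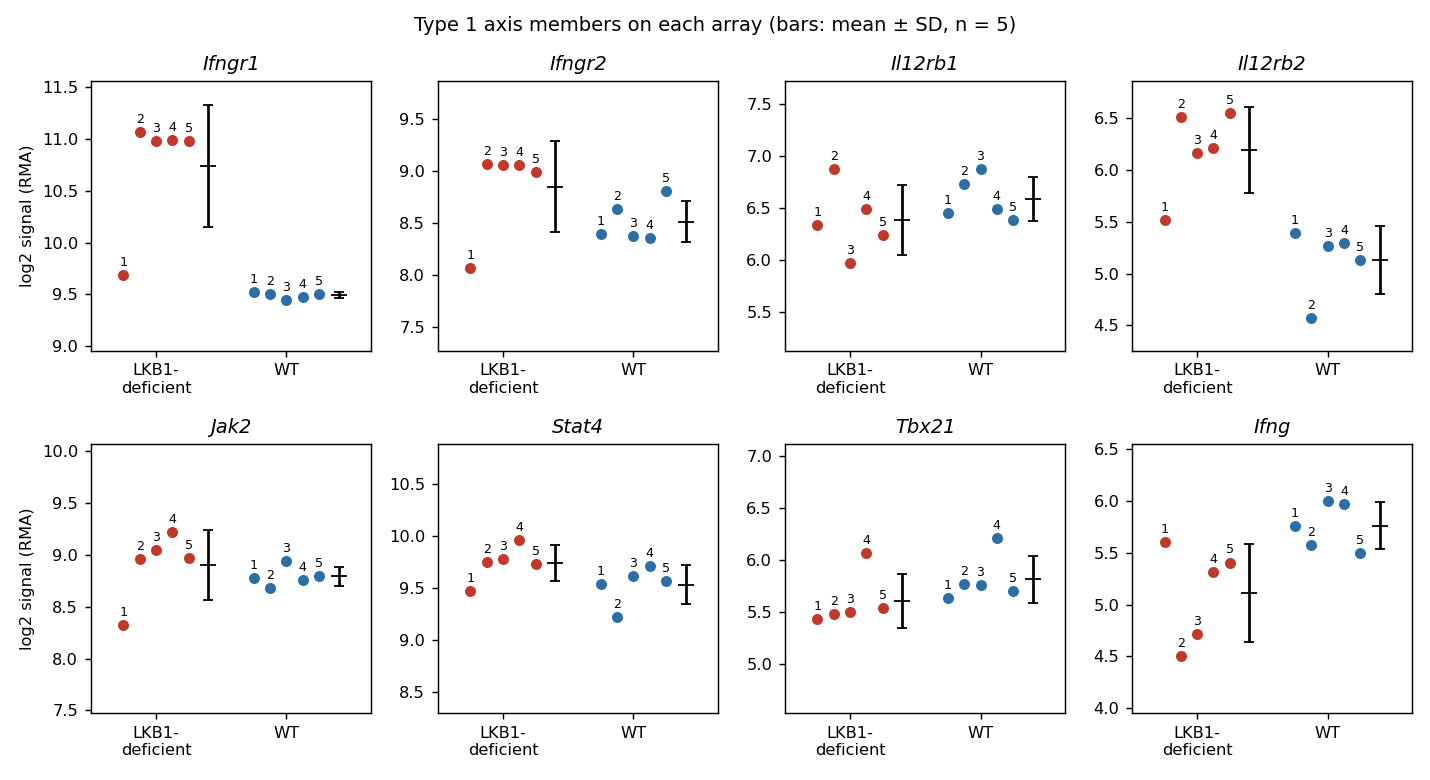
The log2 signal of each member (vertical axes, all spanning the same range) on each array, LKB1-deficient in red to the left and WT in blue to the right, numbered by replicate, with the mean and SD of 5 arrays as black bars. Ifngr1 and Il12rb2 show no overlap between the groups, and LKB1-deficient array 1 is the lowest of its group for 6 of the 8 members.

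The DNA just before the start of these genes is shown for the 2 called members and for Ifng, because they are the members furthest from WT in each direction. Windows run from 250 bases before to 50 bases after a transcript start in RefSeq (GRCm38.p6) and were found for 7 of the 8 members. Capitals mark matches, on either strand, to the interferon gamma activated site bound by STAT factors (GAS, TTCNNNGAA), the interferon-stimulated response element (ISRE), a T-box core (TCACAC) and a GC box (GGGCGG, or CCGCCC on the other strand). No 2 matches overlapped in the 3 windows.
Ifngr1, chr10:19591699-19591998, plus strand: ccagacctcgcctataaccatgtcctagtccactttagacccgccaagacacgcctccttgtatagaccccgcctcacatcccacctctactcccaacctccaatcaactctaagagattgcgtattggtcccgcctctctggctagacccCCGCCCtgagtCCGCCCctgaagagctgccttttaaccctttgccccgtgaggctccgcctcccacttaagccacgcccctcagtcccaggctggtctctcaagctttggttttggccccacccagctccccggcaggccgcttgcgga
Il12rb2, chr6:67376139-67376438, minus strand: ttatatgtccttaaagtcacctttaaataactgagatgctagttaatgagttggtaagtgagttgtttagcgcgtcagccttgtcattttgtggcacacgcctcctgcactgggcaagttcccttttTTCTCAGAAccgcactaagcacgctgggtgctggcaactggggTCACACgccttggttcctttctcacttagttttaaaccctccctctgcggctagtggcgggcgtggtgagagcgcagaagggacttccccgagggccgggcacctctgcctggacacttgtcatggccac
Ifng, chr10:118440796-118441095, plus strand: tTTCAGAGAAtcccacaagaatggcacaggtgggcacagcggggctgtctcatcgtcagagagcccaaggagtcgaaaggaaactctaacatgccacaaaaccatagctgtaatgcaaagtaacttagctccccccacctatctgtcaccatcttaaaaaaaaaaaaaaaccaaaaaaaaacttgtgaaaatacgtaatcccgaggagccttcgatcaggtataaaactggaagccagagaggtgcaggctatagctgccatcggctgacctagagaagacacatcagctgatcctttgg
The Ifngr1 window held 2 GC boxes, 99 and 88 bases before the start, and no match to the GAS, the ISRE or the T-box core. The Il12rb2 window held a GAS match 123 bases and a T-box core 80 bases before the start, and no GC box. The Ifng window held a GAS match at its far end, 249 bases before the start. Over all 32851 windows of this length, 8.3% held the GAS, 3.44% the ISRE, 14.5% the T-box core and 35.7% the GC box. Among the other members, GC boxes stood in the windows of Ifngr2, Jak2 and Tbx21, and an ISRE match in 1 of the 2 windows of Stat4. A match is a run of letters and not evidence of binding.

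The kinase and the signalling factor lay slightly higher in LKB1-deficient cells on most arrays. Jak2, which serves both receptors, had log2 signals of 8.33, 8.96, 9.04, 9.22 and 8.97 on LKB1-deficient arrays 1 to 5, against 8.78, 8.68, 8.94, 8.76 and 8.80 on WT arrays 1 to 5. It was above every WT array on 4 LKB1-deficient arrays and below every WT array on array 1, with a difference of 0.11 (SE 0.14) over all arrays. Stat4, which carries the IL-12 signal to the nucleus, had log2 signals of 9.47, 9.75, 9.77, 9.96 and 9.73 on LKB1-deficient arrays 1 to 5, against 9.54, 9.22, 9.62, 9.71 and 9.57 on WT arrays 1 to 5. It was above every WT array on 4 LKB1-deficient arrays, although by as little as the gap between 9.73 and 9.71, and its difference was 0.21 (SE 0.12). Without LKB1-deficient array 1 the differences were 0.25 for Jak2 and 0.27 for Stat4.

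The T-bet and cytokine genes did not move with Ifngr1 and Il12rb2. Tbx21, the T-bet gene, had log2 signals of 5.43, 5.48, 5.50, 6.07 and 5.54 on LKB1-deficient arrays 1 to 5, against 5.64, 5.77, 5.76, 6.21 and 5.70 on WT arrays 1 to 5. On 4 LKB1-deficient arrays it was below every WT array, and array 4 was the highest within each group, so the groups overlapped and the difference was -0.21 (SE 0.14). Ifng, the type 1 cytokine, had log2 signals of 5.61, 4.50, 4.72, 5.31 and 5.40 on LKB1-deficient arrays 1 to 5, against 5.75, 5.58, 5.996, 5.97 and 5.50 on WT arrays 1 to 5. It was below every WT array on 4 LKB1-deficient arrays, lowest on arrays 2 and 3, and array 1 lay within the WT range. Its difference was -0.65 (SE 0.20, 95% confidence interval -1.09 to -0.21). Ifng was not called in the main fit (all 10 arrays, no covariate, block or weights). It was called lower in 3 of 24 alternatives, which add no support. They left out the LKB1-deficient arrays with its highest values, or took as covariates marker lists of other cells, given further on. Within the groups those lists ran with Ifng (r 0.92 for natural killer cells, 0.90 for B cells and 0.62 for macrophages). The lists were also higher in LKB1-deficient cells on average. On LKB1-deficient arrays 2 to 5 the receptor chain genes Ifngr1 and Il12rb2 thus lay above the WT arrays and the cytokine gene Ifng below them.

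**Figure D2:**
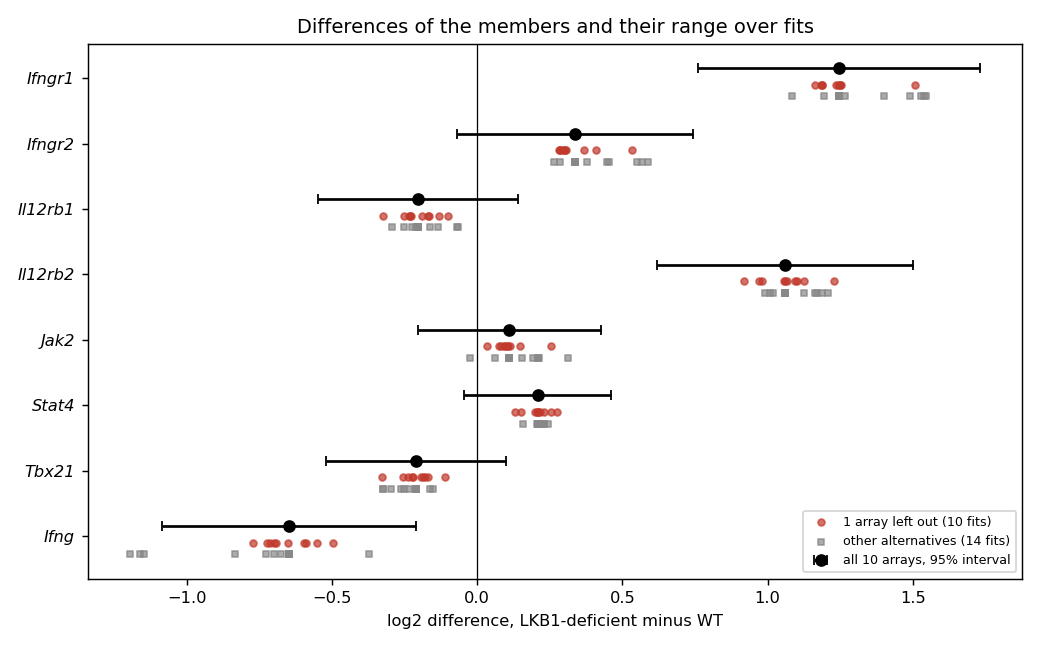
The log2 difference of each member, LKB1-deficient minus WT (horizontal axis), with its 95% confidence interval over all 10 arrays in black, the 10 fits that leave out 1 array in red and 14 other alternatives in grey. Ifngr1 spans 1.08 to 1.55 and Il12rb2 0.92 to 1.23 over the alternatives, and Ifng reaches -1.20.

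LKB1-deficient array 1 set much of the spread of some members within its group. Without it the SD fell from 0.59 to 0.04 for Ifngr1, 0.44 to 0.03 for Ifngr2, 0.41 to 0.20 for Il12rb2, 0.34 to 0.12 for Jak2 and 0.18 to 0.11 for Stat4. It moved little for Ifng (0.47 to 0.44) and rose for Il12rb1 (0.33 to 0.38) and Tbx21 (0.26 to 0.28). Array 1 was the lowest of the LKB1-deficient arrays for 6 members and the highest for Ifng, and Il12rb1 was the exception. Over all genes, 26.1% were lowest there. On array 1 Foxp3 was also low. The mean of 13 Treg and T cell identity markers was 10.21 there, against 10.54 to 10.84 on the other 4 LKB1-deficient arrays and 10.72 to 10.79 on WT arrays. LKB1-deficient arrays 4 (10.61) and 5 (10.54) were below the WT arrays on this mean too. Of the 13 differences 11 were negative and 2 positive, with 0 called. The part of lower Foxp3 and identity markers in the members' levels was not tested.

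**Figure D3:**
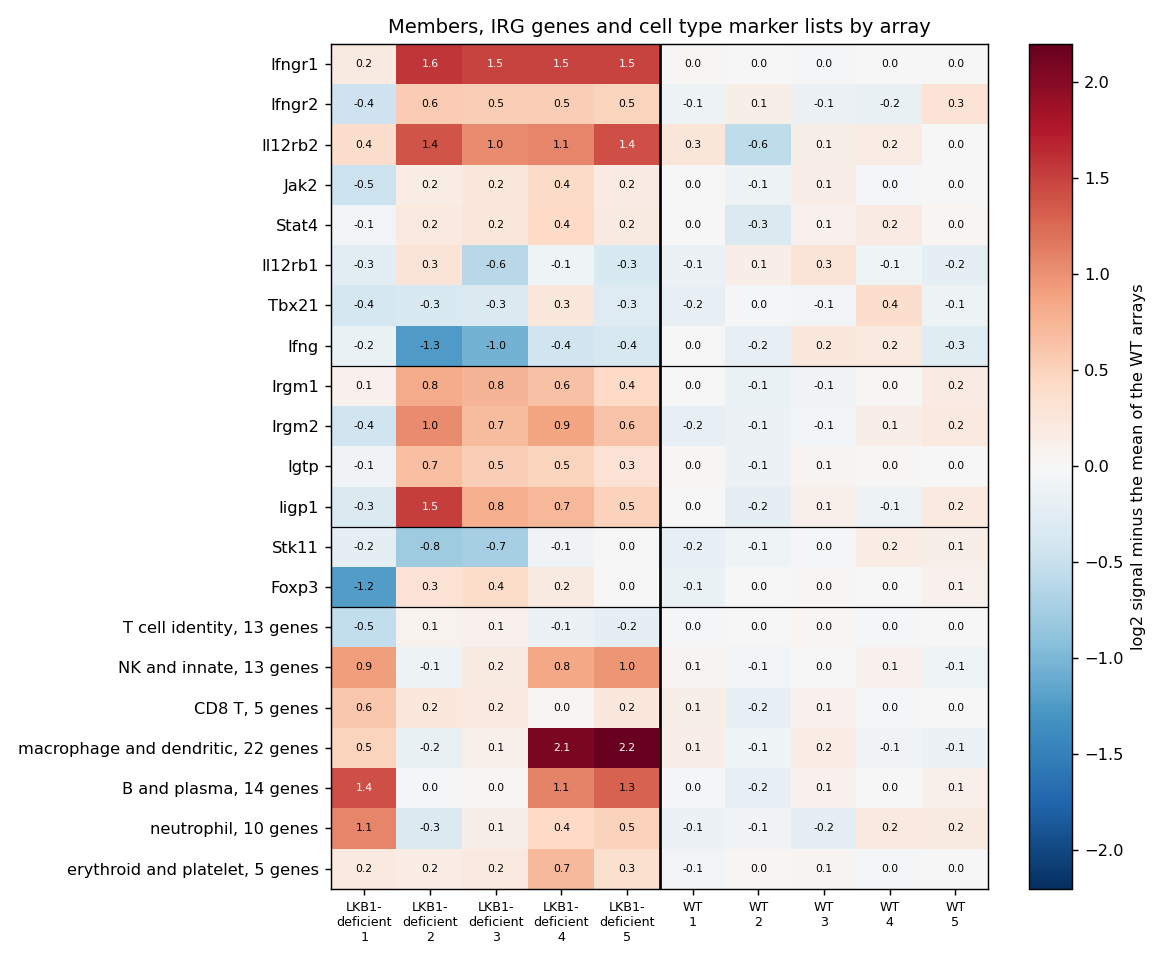
Members, genes of immunity-related GTPases (IRG), Stk11, Foxp3 and the means of 7 marker lists (rows) on each array (columns, LKB1-deficient to the left), as log2 signal minus the mean of the WT arrays. Of the IRG genes, Irgm2 and Iigp1 were picked after their values were seen. Ifngr1, Ifngr2, Il12rb2 and the IRG genes are raised on LKB1-deficient arrays 2 to 5 and Il12rb1 is not. The macrophage list is raised most on arrays 4 and 5, and on array 1 it is also above the WT arrays. The B cell list is raised on arrays 1, 4 and 5, and the NK list is above the WT arrays on arrays 1, 3, 4 and 5.

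Several members are also expressed by natural killer (NK) cells, CD8 T cells or myeloid cells, so marker lists of 6 other cell types were read beside them. The NK and innate lymphoid list (13 of 15 genes measured) had means of 5.17 to 6.26 on LKB1-deficient arrays and 5.19 to 5.37 on WT arrays, and 12 of its 13 differences were positive, with 1 gene called higher and 1 lower. Array by array, the LKB1-deficient means were 6.20, 5.17, 5.48, 6.13 and 6.26 for replicates 1 to 5. Its member with the highest level was Tyrobp, an adaptor also of myeloid cells, at 8.65 to 11.30 on LKB1-deficient and 8.41 to 8.98 on WT arrays. Named after their values were seen, 3 NK receptor genes differed in how they lay. Klrd1 (CD94) had log2 signals of 6.42, 5.02, 5.64, 5.63 and 6.41 on LKB1-deficient arrays 1 to 5, against 4.49, 4.47, 4.53, 4.18 and 3.77 on WT arrays 1 to 5. It rose by 1.53 (SE 0.25, limma adjusted p = 0.0170, 0.00899 to 0.278 over the alternatives), with no overlap, and missed the threshold without WT array 4 (0.0628). Klrc1 (NKG2A), its partner chain, lay at 4.60 to 6.05 on LKB1-deficient and 4.24 to 5.44 on WT arrays (1.12, adjusted p = 0.0982), and Ncr1 (NKp46) at 4.002 to 4.85 and 3.81 to 4.60 (0.11, 0.844). LKB1-deficient arrays 2 and 3, the lowest of their group for this list, were also the lowest for Ifng, and the part of the one in the other was not tested.

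The macrophage, monocyte and dendritic list (22 of 22 genes, 21 differences positive, 0 called) had means of 6.25 to 8.61 on LKB1-deficient and 6.29 to 6.58 on WT arrays, led by Lyz2 at 9.68 to 11.01 and 8.69 to 9.57. The B and plasma cell list (14 of 16 genes, all 14 positive, 0 called) had means of 5.58 to 7.01 on LKB1-deficient and 5.40 to 5.70 on WT arrays, led by H2-Ab1 at 8.99 to 11.41 and 8.80 to 9.18. The CD8 T cell list (5 genes, 1 called higher) had means of 5.69 to 6.25 on LKB1-deficient and 5.47 to 5.78 on WT arrays, with Cd8b1 highest at 7.67 to 7.86 and 7.50 to 8.05. Its called gene was Cd8a, at 5.90 to 6.70 on LKB1-deficient and 5.12 to 5.80 on WT arrays with no overlap (0.77, SE 0.16, limma adjusted p = 0.0423, 0.0275 to 0.307 over the alternatives). Cd8a passed without LKB1-deficient array 1 or 3 or WT array 5, and in no other of the 10 fits that leave out 1 array. The neutrophil list (10 genes, 0 called), led by S100a9, had means of 4.18 to 5.57 and 4.32 to 4.71, and the erythroid and platelet list (5 of 9 genes, 1 called higher), led by Itga2b, 5.30 to 5.85 and 5.07 to 5.20, each on LKB1-deficient and then WT arrays. The called erythroid and platelet gene was Gp9, at 5.65 to 6.55 on LKB1-deficient and 4.96 to 5.30 on WT arrays (0.95, adjusted p = 0.0204), and it missed the threshold without WT array 1, 3, 4 or 5 (up to 0.0658). Which markers are absent cannot be read from a log2 scale without detection calls.

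On LKB1-deficient array 2 the macrophage, B cell and NK list means (6.25, 5.58 and 5.17) were at or below the top of the WT range, whereas the CD8 list mean (5.89, WT up to 5.78) and the erythroid and platelet mean (5.30, WT up to 5.20) were above it, as was Klrd1 (5.02, WT up to 4.53). Ifngr1 and Il12rb2 stood at 11.07 and 6.51 there. Without LKB1-deficient arrays 1, 4 and 5 the differences of Ifngr1, Il12rb2 and Ifng were 1.53, 1.21 and -1.15. With covariates for macrophage and for B cell markers they were 1.55, 1.17 and -1.16, and with the NK list mean 1.54, 1.19 and -1.20. Within the groups the NK list had r of -0.44, -0.21 and 0.92 with Ifngr1, Il12rb2 and Ifng. It was higher in LKB1-deficient cells on average, so that covariate had to enlarge all 3 differences. In the same order r was -0.55, -0.24 and 0.90 for the B cell list and 0.18, 0.23 and 0.62 for the macrophage list. Among LKB1-deficient arrays, array 1 held the lowest Ifngr1 and Il12rb2, so leaving it out had to enlarge their differences, and arrays 1, 4 and 5 held the highest Ifng, so leaving out all 3 had to enlarge its difference. The part of other cells in the members' levels was not tested.

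The running codes in the sample descriptions place replicates 1 to 3 of both groups in one run of 6 arrays (set 1) and replicates 4 and 5 in a run of 4 (set 2), with no word on their meaning. The difference of Ifngr1 was 1.08 in set 1 and 1.49 in set 2, and that of Il12rb2 0.99 and 1.16. Ifng was at -0.83 and -0.37, Tbx21 at -0.25 and -0.15, Stat4 at 0.21 in both, Ifngr2 at 0.26 and 0.45, and Il12rb1 at -0.29 and -0.07, each in set 1 and set 2 in turn. Jak2 changed sign, at -0.025 in set 1 and 0.31 in set 2.

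The rest of the pathway was read from 5 lists that hold no member, 79 genes of which 72 were measured. Over these, 1 gene rose and 1 fell in the limma test (2.78%, against 1.06% of all genes), with a median difference of 0.03, against 0.0034 over all genes. Both stood in the type 1 effector programme.

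Runx3, a transcription factor that works with T-bet on Ifng in helper T cells, had log2 signals of 7.32, 7.67, 7.76, 7.59 and 7.31 on LKB1-deficient arrays 1 to 5, against 7.04, 6.71, 6.84, 6.82 and 6.996 on WT arrays 1 to 5. Every LKB1-deficient array lay above every WT array, and the gene rose by 0.65 (SE 0.11, limma adjusted p = 0.0235, 0.00864 to 0.249 over the alternatives). It stayed past the threshold in 6 of the 10 fits that leave out 1 array and missed it without LKB1-deficient array 4 or WT array 2, 3 or 4 (up to 0.0820).

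Nkg7, a granule protein of cytotoxic and type 1 lymphocytes, had log2 signals of 8.62, 8.15, 7.74, 8.46 and 8.36 on LKB1-deficient arrays 1 to 5, against 9.09, 9.01, 9.31, 9.19 and 8.96 on WT arrays 1 to 5. Every LKB1-deficient array lay below every WT array, and the difference was -0.84 (SE 0.15, limma adjusted p = 0.0236, 0.00395 to 0.250 over the alternatives). It passed without any 1 LKB1-deficient array and missed the threshold without any 1 WT array (up to 0.0823). Nkg7 is also on the NK list, where it was the gene with a negative difference.

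Of the 20 measured genes of the type 1 effector programme, 18 did not pass, 11 differences were positive and 9 negative, and the median was 0.02. The list shares 4 genes with the NK list and 1 with the CD8 list. Named after their values were seen, Cxcr3, a chemokine receptor gene that T-bet induces, was at -0.73 (adjusted p = 0.250) with 6.76 to 8.38 on LKB1-deficient and 7.81 to 8.58 on WT arrays, and Klrg1, a receptor of highly differentiated effector cells, was at -0.82 (adjusted p = 0.101) with 4.36 to 5.39 and 5.40 to 6.14. Klrg1 did not overlap between the groups. These negative genes do not stand for the list. Prf1 (0.56, limma adjusted p = 0.152), Ccl3 (0.77, 0.159) and Eomes (0.70, 0.225) lay on the other side, each with a smaller p than Cxcr3. Prf1 and Eomes are also on the NK list.

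Interferon gamma target genes, measured for 23 of 26, gave 0 calls in the main fit, 14 positive and 9 negative differences and a median of 0.06. The most negative were Gbp3 (-0.45, limma adjusted p = 0.508), Cxcl10 (-0.27, 0.705) and Tapbp (-0.19, 0.679), so the GTPase genes that follow do not stand for the list. Irgm1, an interferon-induced GTPase of cell-autonomous defence, had log2 signals of 7.54, 8.26, 8.20, 8.08 and 7.89 on LKB1-deficient arrays 1 to 5, against 7.45, 7.30, 7.37, 7.46 and 7.63 on WT arrays 1 to 5. It was above every WT array on all LKB1-deficient arrays but array 1, with a difference of 0.55 (SE 0.13, limma adjusted p = 0.0793). Igtp, of the same GTPase family, was at 0.39 (SE 0.13, adjusted p = 0.180), and Irgm2 and Iigp1, named after their values were seen, were at 0.56 (0.287) and 0.65 (0.267). Each of these 4 GTPase genes had its lowest LKB1-deficient signal on array 1, as Ifngr1 and Ifngr2 had. This was not particular to them, since 26.1% of all genes were lowest of that group there. Among them were genes of the list with negative differences, such as Gbp3 (5.73), Tapbp (8.43) and Psmb8 (9.25). Without LKB1-deficient array 1 the 4 GTPase genes were the genes of the list called, which leaving out their lowest array had to favour. Irgm1, Igtp, Irgm2 and Iigp1 were then at 0.66 (limma adjusted p = 0.00882), 0.50 (0.0167), 0.81 (0.00590) and 0.89 (0.0301).

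Ciita, the activator of MHC class II genes, lay at 6.33 to 7.13 on LKB1-deficient arrays, against 5.87 to 6.25 on WT arrays, with no overlap and a difference of 0.57 (SE 0.14, adjusted p = 0.0844). It was highest on LKB1-deficient arrays 4 and 5, where the B cell and macrophage lists were also high, and the part of those cells in its level was not tested. Cxcl9, an interferon gamma induced chemokine of macrophages named after its values were seen, had log2 signals of 6.89, 6.52, 7.20, 8.94 and 9.43 on LKB1-deficient arrays 1 to 5, against 6.32 to 6.85 on WT arrays. LKB1-deficient arrays 4 and 5 stood apart, as they did for the macrophage list. Its difference was 1.24 (SE 0.48, adjusted p = 0.260).

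The receptor signalling partners and regulators gave 0 calls among 13 measured genes of 14 (5 differences positive, 8 negative, median -0.02). The 3 with the smallest p were Socs3, a feedback inhibitor of cytokine receptors, at 7.42 to 8.18 on LKB1-deficient and 7.91 to 8.53 on WT arrays (-0.52, SE 0.17, adjusted p = 0.178), Irf8, a transcription factor of myeloid and B cells, at 7.18 to 8.76 and 7.13 to 7.69 (0.60, SE 0.26, 0.317), and Ptpn11, the phosphatase SHP2, at 6.97 to 7.32 and 7.06 to 7.60 (-0.25, SE 0.12, 0.354). Irf8 was highest on LKB1-deficient arrays 4 and 5, at 8.65 and 8.76.

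The IL-12 family list gave 0 calls among 9 genes (4 differences positive, 5 negative, median -0.0033). Il6st, the gp130 chain that also serves IL-27, was below every WT array on all 5 LKB1-deficient arrays, at 10.11 to 10.41 against 10.48 to 10.60 (-0.23, SE 0.08, adjusted p = 0.239). Il27ra was at -0.16 (adjusted p = 0.570), and Ebi3, a subunit of IL-27 and IL-35, at -0.33 (0.678), with 6.05 and 6.35 on LKB1-deficient arrays 2 and 3, below the WT range of 7.21 to 7.58, and 7.30 to 7.77 on arrays 1, 4 and 5. The IL-18 axis gave 0 calls among 7 of 8 genes (median 0.15). Il18bp, which neutralises IL-18, was at 7.90 to 9.08 on LKB1-deficient and 7.32 to 7.90 on WT arrays (0.75, SE 0.20, adjusted p = 0.109). Il18rap, a chain of the IL-18 receptor, was at 4.72 to 5.50 and 5.07 to 6.05 (-0.61, SE 0.19, 0.158), and Irak1, a kinase of that receptor, at -0.22 (0.271).

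**Figure D4:**
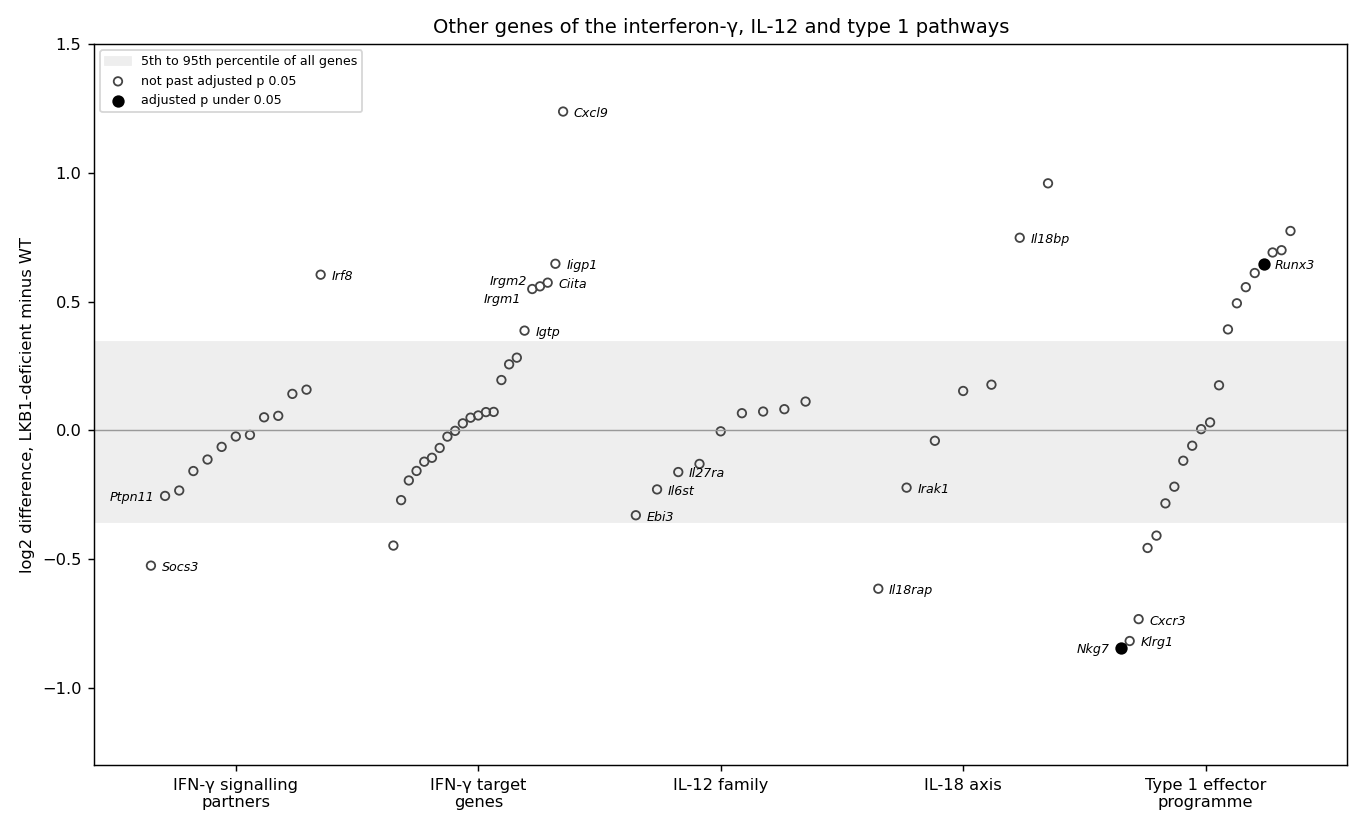
The log2 difference, LKB1-deficient minus WT (vertical axis), of the 72 measured genes of the 5 pathway lists (columns, genes ordered by value), filled where the adjusted p was under 0.05, with the 5th to 95th percentile of all genes in grey. Runx3 and Nkg7 are the 2 filled points, on opposite sides of 0.

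Genes whose deviations from the group means ran most closely with those of a member over the 10 arrays were listed as a description. For Ifngr1 they were Dnajc7, Snx18, Gimap7 and Abi1 (Pearson r 0.989 to 0.993). That likeness leaned on LKB1-deficient array 1 for all but Snx18, since without it r was -0.24 for Dnajc7, 0.85 for Snx18, 0.46 for Gimap7 and 0.29 for Abi1. For Il12rb2 they were Gnas, Hyou1, Creld2 and Zfp563 (r 0.941 to 0.958, and 0.884 to 0.926 over the 9 arrays without LKB1-deficient array 1). For Ifng they were S100a6, S100a11, Arhgap26 and Zdhhc2 (r 0.955 to 0.978, and 0.948 to 0.973 without that array).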

How the data were processed

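Transcript levels were measured on 10 single-channel arrays with 41345 probe sets. Per the labels' protocols, total RNA from sorted cells was purified on Qiagen RNeasy Micro columns, turned into biotinylated cDNA from nanogram amounts by a NuGEN WTA Pico v2 protocol, and such amplification can distort the levels of some transcripts. The deposited values are log2 signals, made with RMA and Partek 6.6 per the submitters' processing notes, in an order and with settings not given in the sources used here. Quantile normalization within RMA hides a shift shared by all transcripts.

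The platform annotation named 23521 probe sets with 1 symbol, 1814 with several and 16010 with none, and only the first were used. Where a gene had several, the brightest on average was kept, and low levels were not filtered out. The 22180 genes entered lmFit and eBayes of limma 3.58.1, run in R 4.3.3, with no covariate (4.36 prior degrees of freedom), and the code was checked on simulated data. Precision is limited by the number of arrays. The members, lists and alternatives were chosen with earlier results of these data known. Named genes were the members, Stk11, called genes of the pathway lists or otherwise the 3 with the smallest p, the highest gene of each marker list, and the 4 closest in pattern to 3 members. Foxp3, Ncr1, Klrd1, Klrc1, Cd8a and Gp9 were named besides. So were Irgm2, Iigp1, Cxcl9, Gbp3, Cxcl10 and Tapbp of the target list and Cxcr3, Klrg1, Prf1, Ccl3 and Eomes of the type 1 list. Alternatives comprised other summaries, scalings, variance priors, weights, blocks, covariates, left-out arrays and a stricter threshold.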

Additional observations from a re-analysis of the deposited data

Results flagged for a closer look

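Within groups of 5 arrays, Dixon's ratio of the gap beside the most extreme array to the whole range was above its 95% critical value of 0.71 for 9 of 82 groups examined, 4 of them among the 16 groups of members. Chance flags about 1 in 20 groups where these are independent. The groups here share the same arrays, and some genes were named after their values were seen, so that rate cannot judge these counts. Within the LKB1-deficient group, 26.1% of all genes had their minimum on array 1. The share of all genes flagged by this ratio was not computed, so the members cannot be called unusual. LKB1-deficient array 1 stood apart on the low side for Ifngr1 (9.69, the nearest array being at 10.98), Ifngr2 (8.06 and 8.99), Irgm2 (8.67 and 9.73) and Foxp3 (9.86 and 11.10). Tbx21 stood apart on the high side on LKB1-deficient array 4 (6.07 and 5.54) and on WT array 4 (6.21 and 5.77), so both arrays numbered 4 were the highest of their group. Igtp stood apart on the low side on WT array 2 (9.96 and 10.11). Klrc1 stood apart on the low side on LKB1-deficient array 2 (4.60 and 5.64) and on the high side on WT array 4 (5.44 and 4.35).

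The difference between LKB1-deficient and WT cells depended on the code set for Irf8, Lyz2 and Cxcl9 in the genotype-by-set term of limma. Over all 22180 genes, 240 had an adjusted p under 0.05 for this term. Only some of the genes named here were read for it, and Cxcl9 was named after its values were seen. Irf8 was 1.43 higher in set 2 and 0.05 higher in set 1, a gap of 1.38 (adjusted p = 0.0478). Lyz2 was 2.13 and 0.53 higher in set 2 and set 1, a gap of 1.59 (adjusted p = 0.0417), and Cxcl9 2.71 and 0.26, a gap of 2.46 (adjusted p = 0.00242). All 3 are expressed by macrophages, whose marker list was raised on the LKB1-deficient arrays of set 2. Lyz2 is itself on that list, so for Lyz2 the list is not a separate observation. The part of macrophage transcripts in these gaps was not tested.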

How the results depend on the processing

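Of the differences of the 8 members over 24 alternatives, 1 reversed, that of Jak2 in set 1 alone (-0.025). Ifngr1 and Il12rb2 were not called without moderation of the variances (1.25 and 1.06), with the replicate block (1.25 and 1.06) or in set 1 alone (1.08 and 0.99), and Il12rb2 was not called with the NK list covariate (1.19). With 1 array left out they ranged from 1.16 to 1.51 and from 0.92 to 1.23. Ifng was called lower with the macrophage and B cell covariates (-1.16), with the NK list covariate (-1.20) and without LKB1-deficient arrays 1, 4 and 5 (-1.15), which held its highest values in that group. The NK list ran with Ifng within the groups (r 0.92) and was higher in LKB1-deficient cells on average, so that covariate had to enlarge the difference. Ifng was called in no fit that leaves out 1 array. The count of members called was 0 without moderation, with the replicate block, in set 1 alone and at an adjusted p under 0.01, and 0 to 3 with 1 array left out.

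Over all genes the count called was 236, and 356 with the dimmest 40% of genes removed, 415 after subtraction of array medians, 386 with a trended robust prior, 149 without moderation, 464 with array weights, 50 with the replicate block, 469 in set 2 alone, 114 with the NK list covariate, 357 without LKB1-deficient arrays 1, 4 and 5, 25 at an adjusted p under 0.01, and 38 to 520 with 1 array left out. In set 1 alone limma called 0, with 2247 at an unadjusted p under 0.05. The replicate numbers were not treated as pairs, since deviations of same-numbered arrays correlated at -0.08 to 0.10 and 2 of 5 LKB1-deficient arrays correlated best with their own number. Cells of both groups may have come from the same chimeras. The check cannot exclude such pairs, since the numbers need not follow the hosts.

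The interferon gamma target list had 3 genes called with array weights, 1 in set 2 alone, 4 with the macrophage and B cell covariates, 2 with the NK covariate, 4 without LKB1-deficient arrays 1, 4 and 5, and 0 to 4 with 1 array left out. The signalling partners and the IL-18 axis had 1 each in set 2 alone, and the IL-12 family 1 with either covariate fit and without LKB1-deficient arrays 1, 4 and 5. The signalling partners, the IL-12 family and the IL-18 axis had 0 in each fit with 1 array left out. The type 1 programme, with 2 called in the whole set of arrays, had 0 without moderation, with the replicate block, in either set alone and at an adjusted p under 0.01, 5 with the macrophage and B cell covariates, 4 without LKB1-deficient arrays 1, 4 and 5, and 0 to 2 with 1 array left out. Causes were not tested. Fewer arrays or a block leave fewer degrees of freedom.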
